A study of Mus musculus with 9 samples.

Results

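Toll-like receptors recognise microbial molecules and molecules released by damaged tissue, and in mice most of them signal through the adaptor protein MyD88. The 10 genes described here, 9 receptors (Tlr1, Tlr2, Tlr3, Tlr4, Tlr6, Tlr7, Tlr8, Tlr9 and Tlr13) and Myd88, were taken by their Ensembl identifiers from 53465 gene rows, and all 10 were matched. Transcripts were counted by RNA sequencing of the infarct border zone in 9 heart libraries from NOD-SCID mice, 3 per group. The groups were sham surgery, coronary artery ligation, and ligation followed by implantation of cells named FOXO3-GE-MPCs, called the cell group here. NOD-SCID mice lack mature T and B lymphocytes in all 3 groups, while macrophages and other myeloid cells remain. Age, sex, time after surgery and the number of animals per library are not given in the labels. For cell replicates 2 and 3, 1 label names a FOXO member other than FOXO3, which their titles and treatment labels give.

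Receptors at the cell surface bind lipids, lipopeptides and proteins. Those in endosomes bind nucleic acids and need the chaperone UNC93B1 to get there. Ligand binding brings the TIR domains of a receptor pair together, and MyD88 then recruits IRAK kinases and TRAF6, which leads to NF-kappaB and IRF transcription factors. TLR3 uses the adaptor TRIF in place of MyD88, and TLR4 uses both. In the heart, receptors of this family are found on macrophages and other leukocytes, and TLR4 is also found on cardiomyocytes.

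Libraries held 4549268 to 7515052 gene counts, and all levels are CPM, counts scaled to a common library size with TMM factors. Members were at low levels: 3 counts, taken as the smallest detectable level, corresponded to 0.375 to 0.639 CPM. Cardiomyocyte markers of the labelled tissue were high in every library, but 4 of them summed to 21848 to 23209 CPM in sham, 19678 to 20428 in ligation and 18266 to 18783 with cells, without overlap. The 4 did not all move alike. After ligation 1 was called higher and 2 lower, beside 20.1% and 18.0% of all tested genes. With cells against sham 1 was higher and 3 lower, beside 21.0% and 20.0%, and with cells against ligation 0 were higher and 2 lower, beside 4.19% and 5.69%. The part of these markers in the results was not tested. Of B cell markers, Ms4a1 had 0 counts in all 9 libraries and Cd79a at most 3, and the 3 T and NK cell markers summed to at most 1.30 CPM. Mitochondrially encoded genes took 19.1% to 19.9% of counts in sham and 12.5% to 14.3% in the other groups. Without these genes in the fit 6, 7 and 4 members were called in the 3 comparisons, as with them. Sham replicates 1 and 2 have the same name stem in their file headers, as do ligation replicates 2 and 3, and nothing in the labels says that they came from separate animals, so p-values measure the spread between these libraries, which may in part be technical.

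After ligation 6 of the 10 genes rose and none fell, and in the cell group 7 were lower than in ligation and none higher. The genes rising after ligation were Tlr2, Tlr4, Tlr7, Tlr8, Tlr9 and Tlr13, by 0.85 to 2.18 on the log2 scale. With cells Tlr1, Tlr2, Tlr7, Tlr8, Tlr9, Tlr13 and Myd88 were lower, by 0.42 to 2.41. Tlr4 was at 26.1 CPM in ligation and 25.2 with cells, and neither Tlr3 nor Tlr6 passed the test in any comparison. The test was the quasi-likelihood F test of edgeR, and a gene passed at a Benjamini-Hochberg adjusted p under 0.05 over all 13825 genes tested. Of the empty directions, none of the 10 genes was lower after ligation at an unadjusted p under 0.05, and 1, Tlr3, was higher with cells; DESeq2 and limma-voom also called 0 in both.

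Against that background, 20.1% of all tested genes were higher and 18.0% lower after ligation (38.2% in either direction), while 4.19% were higher and 5.69% lower with cells than in ligation (9.87% in either direction). The median log2 fold change of the 10 genes was 0.87 after ligation and -1.19 with cells against ligation, beside 0.01 and 0.00 over all tested genes. CPM ranges of ligation and sham did not overlap for 6 of the 10 genes, all higher, and 25.0% of tested genes had such a range. Ranges of the cell and ligation groups did not overlap, with cells lower, for 7 of 10 and for 14.0% of tested genes. These 2 comparisons share the ligation libraries, so their opposite signs are not independent. Tlr8 and Tlr9 entered the test only through their ligation libraries, which alone reached the filter's level of 1.48 CPM, so a difference was built into their selection; the same holds for Tlr1 in the comparisons with cells, since no cell library of it reached that level. Of the other 7 genes, 4 rose after ligation and 4 were lower with cells, with medians of 0.85 and -0.42.

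**Figure D1:**
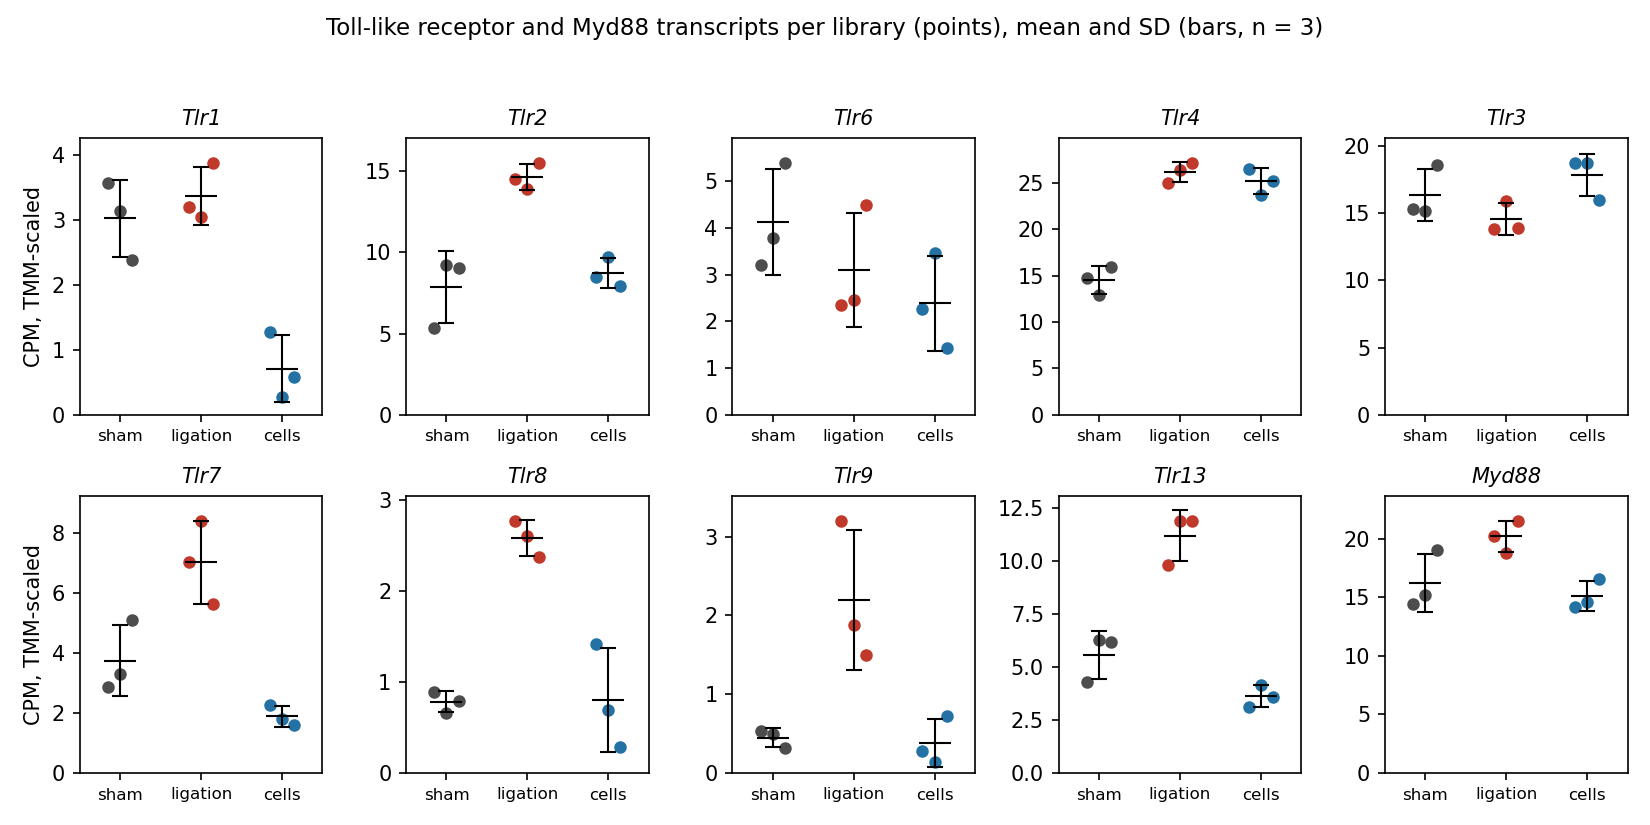
CPM (vertical axes, starting at 0) of each gene in the 9 libraries by group; points are libraries, the wide bar is the mean and the whiskers are the SD over 3 libraries. The ligation points of Tlr7, Tlr8, Tlr9 and Tlr13 lie above all sham and cell points, while the cell points of Tlr4 lie with the ligation points, between 23.7 and 26.5 CPM.

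The endosomal receptors come first. Tlr13 (ENSMUSG00000033777, mm10 chrX:106143204-106160493, plus strand), which in mice detects bacterial ribosomal RNA, was at 4.27, 6.26 and 6.19 CPM in sham, 9.80, 11.9 and 11.9 in ligation, and 3.12, 4.16 and 3.60 with cells. All ligation libraries were above all others, and all cell libraries were below all sham libraries. Tlr13 rose after ligation (log2 fold change 1.01, SE 0.205, adjusted p 0.000537, edgeR) and was lower with cells than in ligation (-1.63, SE 0.214, adjusted p 2.36e-05, edgeR). It was also lower with cells than in sham (-0.62, SE 0.238, adjusted p 0.0423, edgeR). That last call was lost with library totals alone (adjusted p 0.123), with no filter on low counts (0.0683), with DESeq2 (0.0840), with limma-voom (0.0621) and with 2-group fits (0.0730). It was also lost without sham replicate 2 (0.130), sham replicate 3 (0.130), ligation replicate 2 (0.0543), cell replicate 1 (0.138) or cell replicate 3 (0.0870).

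Tlr7 (ENSMUSG00000044583, chrX:167304929-167330558, minus strand), a sensor of single-stranded RNA, was at 2.85, 3.29 and 5.08 CPM in sham, 7.03, 8.39 and 5.63 in ligation, and 2.27, 1.80 and 1.58 with cells. The 3 groups did not overlap, and the cell group was lowest. Tlr7 rose after ligation by 0.89 on the log2 scale (SE 0.274, adjusted p 0.0142, edgeR), a call lost without sham replicate 1 (adjusted p 0.0671), sham replicate 2 (0.0531) or ligation replicate 2 (0.0894). With cells it was lower than in ligation (-1.88, SE 0.298, adjusted p 0.000215, edgeR) and lower than in sham (-0.99, SE 0.328, adjusted p 0.0203, edgeR). The difference from sham did not pass without sham replicate 3 (adjusted p 0.140) or cell replicate 3 (0.0699).

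Tlr8 (ENSMUSG00000040522, chrX:167242696-167264329, minus strand), the neighbour of Tlr7 on the X chromosome and a sensor of RNA breakdown products, was at 0.890, 0.659 and 0.794 CPM in sham, 2.77, 2.60 and 2.38 in ligation, and 1.42, 0.694 and 0.288 with cells. Ligation libraries were again the highest, and sham and cell libraries overlapped. These levels rest on 14, 50 and 17 counts per group. Only the ligation libraries of Tlr8 reached the filter's level, so a difference was built into its selection for the test. Tlr8 rose after ligation (log2 fold change 1.69, SE 0.468, adjusted p 0.00680, edgeR) and was lower with cells than in ligation (-1.65, SE 0.448, adjusted p 0.0208, edgeR). The second call was lost with DESeq2 (adjusted p 0.0605) and without ligation replicate 1 (0.0544), 2 (0.0726) or 3 (0.0569) or without cell replicate 2 (0.0761) or 3 (0.111), and the value was -2.33 without cell replicate 1.

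Tlr9 (ENSMUSG00000045322, chr9:106222598-106226883, plus strand), a sensor of unmethylated CpG DNA that includes mitochondrial DNA, had 3, 3 and 2 counts in sham, 15, 13 and 12 in ligation, and 2, 1 and 5 with cells. In CPM these were 0.534, 0.494 and 0.317, then 3.20, 1.88 and 1.5, then 0.284, 0.139 and 0.720. Sham and cell libraries were near the detectable level and overlapped, and every ligation library was above both. The ratio of summed counts, scaled for library size, was 4.59 for ligation over sham (95% exact interval 2.12 to 11.3) and 5.41 for ligation over cells (2.5 to 13.4), counting error only. In the edgeR fit Tlr9 rose after ligation (log2 fold change 2.18, SE 0.561, adjusted p 0.00396) and was lower with cells (-2.41, SE 0.555, adjusted p 0.00680), with -3.20 in the latter without cell replicate 3. Only its ligation libraries reached the filter's level, so a difference was built into its selection for this test.

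Tlr3 (ENSMUSG00000031639, chr8:45395665-45411080, minus strand), the endosomal receptor of double-stranded RNA, did not share this pattern. It was at 15.3, 15.2 and 18.6 CPM in sham, 13.8, 15.9 and 13.9 in ligation, and 18.7, 18.7 and 16.0 with cells, and was the only one of the 10 genes whose cell libraries were all above its ligation libraries. Its log2 difference was -0.17 after ligation (95% interval -0.45 to 0.12, adjusted p 0.364, edgeR) and 0.29 with cells against ligation (0.01 to 0.57, adjusted p 0.195, edgeR). The sign after ligation turned with library totals alone, as it did under no other scaling tried. An antisense gene, Gm45542, overlaps 381 exonic bases of Tlr3, and the strand setting of the counting is not given.

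The sequences before the start sites of Tlr2, Tlr8, Tlr9 and Tlr13, which all rose after ligation and were lower with cells, are shown beside that of Tlr3, which passed in neither comparison. RefSeq promoters, each from 250 bases before to 50 bases after the start in GRCm38.p6, were matched for 8 of the 10 genes, all but Tlr4 and Tlr7. Capitals mark matches on either strand to the core of the myeloid factor PU.1 (GAGGAA), the AP-1 site (TGANTCA), the interferon-response element (GAAA, any 2 bases, GAAA), the cyclic AMP element (TGACGTCA) and the NF-kappaB consensus, and no 2 different motifs overlapped in the windows shown.
Tlr2 at chr3:83841559-83841858, minus strand: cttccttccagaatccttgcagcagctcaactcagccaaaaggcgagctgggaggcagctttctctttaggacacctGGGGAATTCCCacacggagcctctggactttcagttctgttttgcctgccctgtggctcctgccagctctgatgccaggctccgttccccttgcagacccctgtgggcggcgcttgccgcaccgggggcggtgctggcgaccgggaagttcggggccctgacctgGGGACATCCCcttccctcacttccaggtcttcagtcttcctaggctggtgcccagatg
Tlr8 at chrX:167264280-167264579, minus strand: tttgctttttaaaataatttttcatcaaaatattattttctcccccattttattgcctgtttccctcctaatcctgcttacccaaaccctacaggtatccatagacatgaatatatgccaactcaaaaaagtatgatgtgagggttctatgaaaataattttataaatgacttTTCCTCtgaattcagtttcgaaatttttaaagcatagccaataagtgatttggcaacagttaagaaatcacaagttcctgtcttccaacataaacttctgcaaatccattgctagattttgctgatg
Tlr9 at chr9:106222348-106222647, plus strand: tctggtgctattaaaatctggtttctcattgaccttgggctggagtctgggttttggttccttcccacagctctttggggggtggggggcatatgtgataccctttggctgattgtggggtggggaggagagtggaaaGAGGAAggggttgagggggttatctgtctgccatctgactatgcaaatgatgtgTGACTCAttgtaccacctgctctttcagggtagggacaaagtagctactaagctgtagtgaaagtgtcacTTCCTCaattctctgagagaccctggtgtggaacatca
Tlr13 at chrX:106143025-106143324, plus strand: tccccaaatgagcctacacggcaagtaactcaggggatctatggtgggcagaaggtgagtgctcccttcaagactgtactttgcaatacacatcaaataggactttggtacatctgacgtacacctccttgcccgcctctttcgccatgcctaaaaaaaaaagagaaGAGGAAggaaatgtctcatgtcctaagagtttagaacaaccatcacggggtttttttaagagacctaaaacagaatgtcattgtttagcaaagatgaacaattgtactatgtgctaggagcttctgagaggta
Tlr3 at chr8:45410331-45410630, minus strand: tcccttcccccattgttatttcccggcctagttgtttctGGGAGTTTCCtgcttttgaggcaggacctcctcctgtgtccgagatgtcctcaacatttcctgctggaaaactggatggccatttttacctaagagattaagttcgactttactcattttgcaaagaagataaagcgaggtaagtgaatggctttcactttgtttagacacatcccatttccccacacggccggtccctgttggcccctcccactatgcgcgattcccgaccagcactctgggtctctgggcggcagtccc

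The PU.1 core stood 77 bases before the start of Tlr8 (as its reverse complement), 112 before and 12 after that of Tlr9, and 83 before that of Tlr13, and 28.3% of the 32851 promoters in the table hold it at least once. It was not found in the windows of Tlr2, Tlr3, Tlr6 or Myd88, and it occurred in 1 of the 2 listed promoters of Tlr1. The AP-1 letters of Tlr9 are held by 7.81% of promoters, and the NF-kappaB consensus, found in Tlr3 and in Tlr2 at 2 places, by 8.46%. The interferon-response letters, held by 3.44% of promoters, occurred in Myd88 and in 1 of the 2 promoters of Tlr6. A match describes letters only, and it says nothing about binding in these hearts.

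Among the surface receptors, Tlr4 (ENSMUSG00000039005, chr4:66827584-66930284, plus strand), the lipopolysaccharide receptor, rose after ligation and was higher than in sham with cells too. Its CPM were 14.8, 12.8 and 15.9 in sham, 24.9, 26.3 and 27.1 in ligation, and 26.5, 23.7 and 25.2 with cells. Both ligated groups lay wholly above sham and overlapped each other. The log2 fold change was 0.85 after ligation (SE 0.117, adjusted p 6.07e-06, edgeR) and 0.79 for cells against sham (SE 0.116, adjusted p 1.35e-05, edgeR). Between cells and ligation it was -0.06, with a 95% interval from -0.28 to 0.16 (adjusted p 0.789, edgeR).

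Tlr2 (ENSMUSG00000027995, chr3:83836272-83841767, minus strand), which pairs with TLR1 or TLR6 to bind lipopeptides, was at 5.34, 9.23 and 9.05 CPM in sham, 14.5, 13.9 and 15.5 in ligation, and 8.51, 9.71 and 7.92 with cells. Ligation stood above the other groups, which overlapped, and sham replicate 1 was the lowest of all. Tlr2 rose after ligation (log2 fold change 0.89, SE 0.183, adjusted p 0.000615, edgeR) and was lower with cells than in ligation (-0.75, SE 0.175, adjusted p 0.00775, edgeR). Between cells and sham it differed by 0.14 (95% interval -0.27 to 0.54, adjusted p 0.604, edgeR).

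TLR1 and TLR6, the partners of TLR2, are encoded by genes that did not pass the test after ligation. Tlr1 (ENSMUSG00000044827, chr5:64924679-64933563, minus strand) was at 3.56, 3.13 and 2.38 CPM in sham and 3.20, 3.04 and 3.88 in ligation, and at 1.28, 0.277 and 0.576 with cells, where it had 9, 2 and 4 counts. Sham and ligation overlapped, and every cell library was below both. No cell library of Tlr1 reached the filter's level, so a difference from the cell group was built into its selection for the test. Its log2 fold change was 0.17 after ligation (95% interval -0.54 to 0.89, adjusted p 0.729, edgeR), -2.23 with cells against ligation (SE 0.429, adjusted p 0.00146, edgeR) and -2.06 with cells against sham (SE 0.442, adjusted p 0.000812, edgeR). Without cell replicate 1 these last 2 values were -2.94 and -2.77. Summed counts, scaled for library size, were 4.83 times as high in ligation as with cells (95% exact interval 2.73 to 9.11) and 4.24 times as high in sham as with cells (2.36 to 8.10).

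Tlr6 (ENSMUSG00000051498, chr5:64952031-64960097, minus strand) lies next to Tlr1 and was at 3.20, 3.79 and 5.40 CPM in sham, 2.34, 2.46 and 4.50 in ligation, and 2.27, 3.47 and 1.44 with cells. All 3 groups overlapped. Its log2 differences were -0.37 after ligation, -0.41 with cells against ligation and -0.79 with cells against sham, with edgeR adjusted p-values of 0.432, 0.563 and 0.0875; without cell replicate 2 the last was -1.15 (adjusted p 0.0302). Of the 31-base words in Tlr1 and Tlr6 transcripts, 20.0% and 16.6% occur in another gene, mostly in each other, so the counts of this pair are uncertain to that extent. That share was 0 for Tlr2, Tlr7, Tlr8, Tlr9 and Tlr13 and 0.667% for Tlr4.

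Myd88 (ENSMUSG00000032508, chr9:119335934-119341411, minus strand), the shared adaptor, had the smallest of the 7 differences called with cells. Its CPM were 14.4, 15.2 and 19.0 in sham, 20.2, 18.8 and 21.5 in ligation, and 14.2, 14.6 and 16.6 with cells. Sham overlapped both other groups, while all cell libraries were below all ligation libraries. After ligation the log2 difference was 0.31 (SE 0.133, adjusted p 0.0696, edgeR), and it passed without sham replicate 3 (adjusted p 0.0202) and with library totals alone (0.00425). With cells against ligation it was -0.42 (SE 0.131, adjusted p 0.0473, edgeR).

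That Myd88 call stood close to the threshold. It was lost with RLE factors (adjusted p 0.0503), DESeq2 (0.127) and libraries summed by header stem (0.0795), and without ligation replicate 1 (0.0846), 2 (0.0650) or 3 (0.193) or cell replicate 1 (0.144) or 2 (0.119). Acaa1a, on the opposite strand, and Slc22a14, on the same strand, overlap the gene, with other genes' exons over 290 of its exonic bases, and 8.93% of the 31-base words of Myd88 transcripts occur in another gene.

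**Figure D2:**
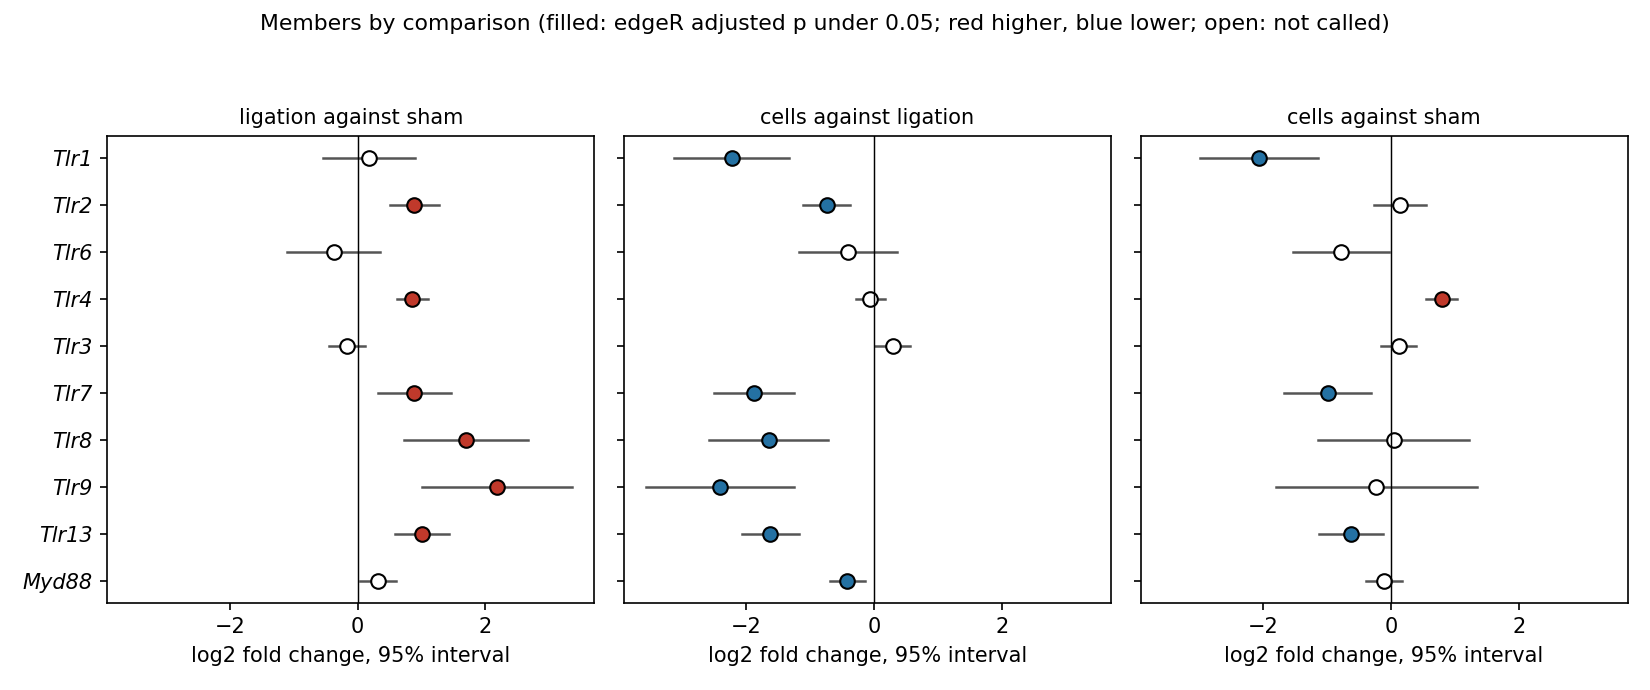
Log2 fold change (horizontal axes) of each gene in the 3 comparisons, with 95% intervals from the edgeR fit; filled points passed an adjusted p of 0.05, red higher and blue lower, and open points did not. Points for Tlr7, Tlr8, Tlr9 and Tlr13 stand right of 0 after ligation and left of 0 with cells, where the interval of Tlr4 runs from -0.28 to 0.16. Tlr8 and Tlr9 entered the test only through their ligation libraries.

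In the third comparison, cells against sham, 4 of the 10 genes were called, beside 40.9% of all tested genes (21.0% higher and 20.0% lower). Tlr4 was higher, and Tlr1, Tlr7 and Tlr13 were lower. The count was 2 without sham replicate 3 and 2 without cell replicate 3. For Tlr8 and Tlr9 the log2 differences of 0.04 and -0.23 had 95% intervals of -1.13 to 1.22 and -1.80 to 1.35. Differences within those intervals were not excluded.

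Levels of different genes were compared as CPM per kilobase of exon. Myd88 was the highest of the 10 in every group, with means of 6.29 ± 0.966 (SD, n = 3), 7.84 ± 0.522 and 5.86 ± 0.497 for sham, ligation and cells. It was followed in sham by Tlr3, Tlr2 and Tlr4 at 3.14, 2.61 and 2.61, whose ranges overlapped in that order, and then by Tlr13, Tlr6, Tlr7 and Tlr1 between 1.30 and 0.904, again with overlapping neighbours. Tlr8 and Tlr9 were lowest, at 0.218 and 0.129. In ligation Tlr2 and Tlr4 followed Myd88 at 4.85 and 4.70, with ranges overlapping each other and above Tlr3 at 2.79. With cells Tlr4 alone was second at 4.53 ± 0.252, above Tlr3 at 3.42 and Tlr2 at 2.89.

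**Figure D3:**
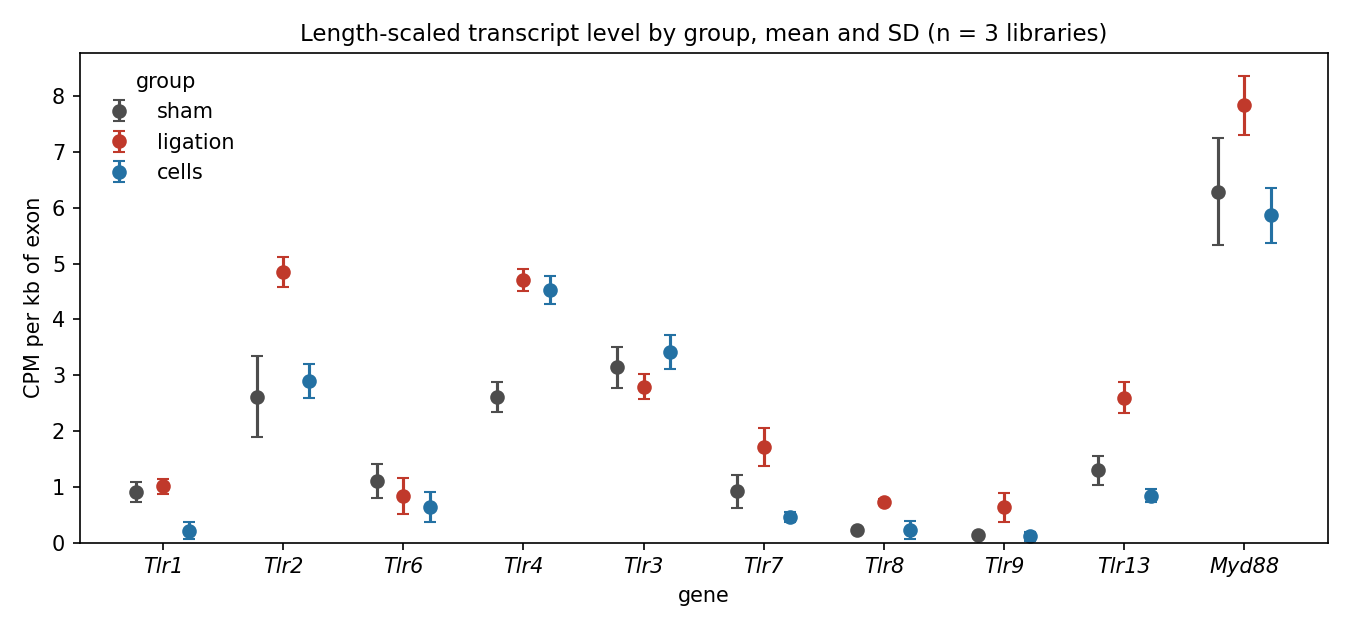
Level per kilobase of exon (vertical axis, CPM per kb, starting at 0) of the 10 genes in the 3 groups; points are means and whiskers SDs over 3 libraries. Tlr4 stands at 2.61 in sham and above 4.5 in both ligated groups, while Tlr2 returns from 4.85 to 2.89.

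The summed macrophage markers were highest in ligation and lowest with cells. Of 10 markers, 9 were higher after ligation and 10 of 10 lower with cells than in ligation, beside 20.1% and 5.69% of all tested genes. With cells against sham 8 of 10 were lower, beside 20.0%. Mertk was the exception after ligation, with all ligation libraries below sham (log2 difference -0.40, adjusted p 0.0546, edgeR). Their summed level was 467 to 495 CPM in sham, 688 to 708 in ligation and 276 to 280 with cells (exact permutation p = 0.1 for each pair of groups, the smallest that 3 against 3 libraries allow). In bulk tissue, fewer cells of a type and less RNA per cell cannot be told apart, and the part of these markers in the members' differences was not tested.

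The summed level of 6 neutrophil markers was 37.9 to 45.2 CPM in sham, 14.5 to 20.98 in ligation and 5.76 to 6.80 with cells, carried mostly by S100a8 and S100a9. After ligation these 2 fell, while the other 2 tested, Cxcr2 and Csf3r, did not pass (log2 differences -0.42 and 0.64), and Ly6g had 0 counts in all sham and cell libraries. With cells against ligation 3 of the 4 tested were lower, beside 5.69% of all tested genes. The median log2 fold change of the 4 was -1.61, beside -1.32 for the macrophage markers. The 5 dendritic cell markers summed to at most 9.98 CPM in any library, with Siglech, of plasmacytoid cells, at 0 counts in some libraries of each group. The 4 fibroblast markers summed to 1325 to 1372 CPM in sham, 1780 to 1842 in ligation and 1761 to 1841 with cells, so that the ligated groups overlapped. Of these, Dcn and Col1a1 rose after ligation by 0.23 and 1.18, Pdgfra fell by 0.20 (adjusted p 0.000117, 2.48e-12 and 0.0490, edgeR), and Tcf21 did not pass. The 4 endothelial markers summed to 1497 to 1584, 995 to 1047 and 1097 to 1127. Their part in the members' differences was not tested either.

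The 3 genes with the profile most like each member were sought among the 13801 tested genes with a mean of at least 1 CPM, by the root mean square difference of centred log2 CPM over the 9 libraries. For Tlr13 they were Wdfy4, Arhgap30 and Spi1, which encodes PU.1, at 0.168, 0.183 and 0.187. For Tlr7 they were Kmo, Clec4a1 and Rasal3 (0.194 to 0.232), for Tlr8 Btk, Xpnpep2 and Spn (0.267 to 0.330), and for Tlr9 Apobec1, Clec4n and Itgb2 (0.283 to 0.347). The CPM of Spi1 itself were 12.0, 21.7 and 8.26 in sham, ligation and cells, and Itgb2, an integrin chain of leukocytes, from 10.2 to 21.9 and then 7.56.

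Those of Tlr4 were other genes. Mical2, Dsp (desmoplakin, of cardiac cell junctions) and Nuak1 were nearest to it, at 0.0694, 0.0758 and 0.0794, and the group means of Dsp were 568, 1001 and 982 CPM. For Tlr2 they were Rassf2, Nphp4 and Serpinb8 (0.109 to 0.179), for Tlr1 Hk3, BE692007 and Tmem273 (0.290 to 0.316), and for Tlr6 Pitpnm3, Neil1 and Cep70 (0.222 to 0.245). The profiles nearest to Tlr3 were those of Amot, Atl2 and Yae1d1 (0.0696 to 0.0719), and the 2 nearest to Myd88 were of Gda and Tnip2 (0.0884 and 0.0885). Over these libraries the SD of log2 CPM was 0.171 for Tlr3 and 0.228 for Myd88, so that a small difference is easier to reach for them than for Tlr13, at 0.705.

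The other genes of the pathway were taken from 9 lists with 69 genes, of which 56 were tested. After ligation 20 were higher and 7 lower, with cells against ligation 2 were higher and 8 lower, and with cells against sham 15 were higher and 13 lower. The shares over all tested genes were 20.1% and 18.0%, 4.19% and 5.69%, and 21.0% and 20.0%. Their median log2 fold change was 0.11, -0.08 and 0.05 in that order, beside 0.01, 0.00 and -0.01 over all tested genes. After ligation the split was 31 higher and 6 lower with library totals alone, and with cells against sham it was 22 and 10; under that scaling the median of all genes is 0.20 and 0.15.

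Of 9 accessory proteins of the receptors, 5 rose and 1 fell after ligation, and 3 were lower and 1 higher with cells than in ligation. Over all tested genes, 20.1% rose and 18.0% fell, and 5.69% were lower and 4.19% higher. Unc93b1, the chaperone of the endosomal receptors, was at 40.1 ± 6.56 CPM (SD, n = 3) in sham, 58.0 ± 2.78 in ligation and 30.2 ± 1.97 with cells, rising by 0.53 (adjusted p 0.000165, edgeR) and then lower by -0.94 (adjusted p 1.06e-06, edgeR). Cd14, which hands lipopolysaccharide to TLR4, was at 16.3 ± 2.73, 33.9 ± 2.78 and 17.3 ± 0.837 CPM, so that with cells it was back near sham while Tlr4 was not (log2 fold change 1.07 after ligation and -0.98 with cells against ligation, adjusted p 6.17e-07 and 8.00e-06, edgeR). Lbp, which binds lipopolysaccharide in serum, rose by 1.12 after ligation (adjusted p 1.00e-07, edgeR) and differed by 0.11 with cells. Ly86, the partner of CD180, rose by 1.09 and was lower with cells by -1.68 (adjusted p 0.000126 and 6.23e-06, edgeR), and Ly96, the MD-2 subunit bound to TLR4, did not pass in either comparison. Cd36, a fatty acid carrier and co-receptor of TLR2, was the one that fell after ligation, and the one that was higher with cells.

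Of the signal carriers downstream, 1 of 14 kinases and ubiquitin ligases, 2 of 2 adaptors, 4 of 8 transcription factors and 2 of 6 inhibitors passed after ligation, beside 38.2% of all tested genes. The kinase list's 1 gene was Traf3, which rose from 20.9 ± 3.14 to 44.9 ± 5.70 CPM (SD, n = 3; log2 fold change 1.11, adjusted p 1.70e-07, edgeR), and 0 of this list passed with cells against ligation, where 2 had an unadjusted p under 0.05 and DESeq2 and limma-voom called 0. With cells against sham 5 of the 14 were higher by edgeR, 5 by limma-voom and 2 by DESeq2. Both tested adaptors other than Myd88 rose after ligation: Tirap, which links TLR2 and TLR4 to MyD88, by 0.36 and Ticam1, which encodes TRIF, by 0.59 (adjusted p 0.0417 and 0.0113, edgeR), and Tirap did not pass with DESeq2 (0.134) or limma-voom (0.0503). Of 8 transcription factors, Irf5, Relb and Nfkb2 rose and Irf3 fell after ligation. Irf5, which acts with MyD88, went from 6.24 ± 0.866 to 14.0 ± 0.468 and then 6.95 ± 2.25 CPM, a log2 fold change of 1.16 after ligation and -1.0 with cells (adjusted p 0.000142 and 0.00182, edgeR). Irf7 was lower with cells than in ligation by -0.30 (adjusted p 0.0179 with edgeR and 0.0507 with DESeq2). Of 6 tested inhibitors, Tnip1 rose by 0.88 and Sigirr fell by 0.65 after ligation (adjusted p 2.84e-09 and 0.00225, edgeR).

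Ligands made by the tissue changed in both directions, and all 8 passed after ligation, beside 38.2% of all tested genes. The matrix proteins Tnc, Fn1, Bgn and Vcan rose by log2 fold changes of 2.17, 1.64, 1.28 and 0.52 (adjusted p 1.38e-08, 2.80e-15, 1.76e-15 and 2.23e-05, edgeR). Hmgb1, a nuclear protein released by dying cells, went from 84.3 ± 6.86 to 45.3 ± 2.88 CPM (SD, n = 3), and S100a8, which neutrophils carry and which is also among the neutrophil markers, from 14.5 ± 1.40 to 3.69 ± 0.937 CPM. With cells against ligation Hspd1 was higher, S100a8, S100a9 and Bgn were lower, and the other 4 did not pass. The S100a8 call (adjusted p 0.0406, edgeR) was lost with DESeq2 (0.068) and limma-voom (0.0697).

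Of 12 cytokines, chemokines and other targets that the pathway induces, 7 were too low to be tested, among them Tnf with 16, 26 and 9 counts per group, Il1b with 26, 26 and 14, and Ifnb1 with 0 in all 9 libraries. Il6 had 1, 1 and 0 counts in sham, 7, 16 and 16 in ligation, and 6, 4 and 6 with cells, a ratio of summed counts of 17.9 for ligation over sham (95% exact interval 4.63 to 153). Il6 entered the test only through its ligation libraries, and Il18r1 only through both ligated groups, so a difference from sham was built into their selection. Of the 5 tested, Il6 and Ptgs2 rose after ligation, and Ccl2, Cxcl1 and Cxcl10 did not pass (log2 differences -0.47, -0.51 and -0.43), for a list median of -0.43. Ptgs2, the inducible prostaglandin synthase, rose from 2.02 ± 0.602 to 5.91 ± 0.780 CPM (SD, n = 3) and was at 8.87 ± 1.61 with cells. Of the receptors for interleukin-1 and interleukin-18, which also use MyD88, Il1r1 and Il18r1 rose after ligation by 0.28 and 1.96 (adjusted p 0.0374 and 0.00655, edgeR), and Il1r1 did not pass with DESeq2 (0.071) or limma-voom (0.0501). In this list 0 of the 3 tested passed with cells against ligation, with 0 at an unadjusted p under 0.05 and 0 by DESeq2 or limma-voom. Of the other mouse receptors, Tlr11 and Tlr12 had at most 3 counts per group, and Tlr5 was tested and did not pass, with log2 differences of 0.48 and -0.66.

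**Figure D4:**
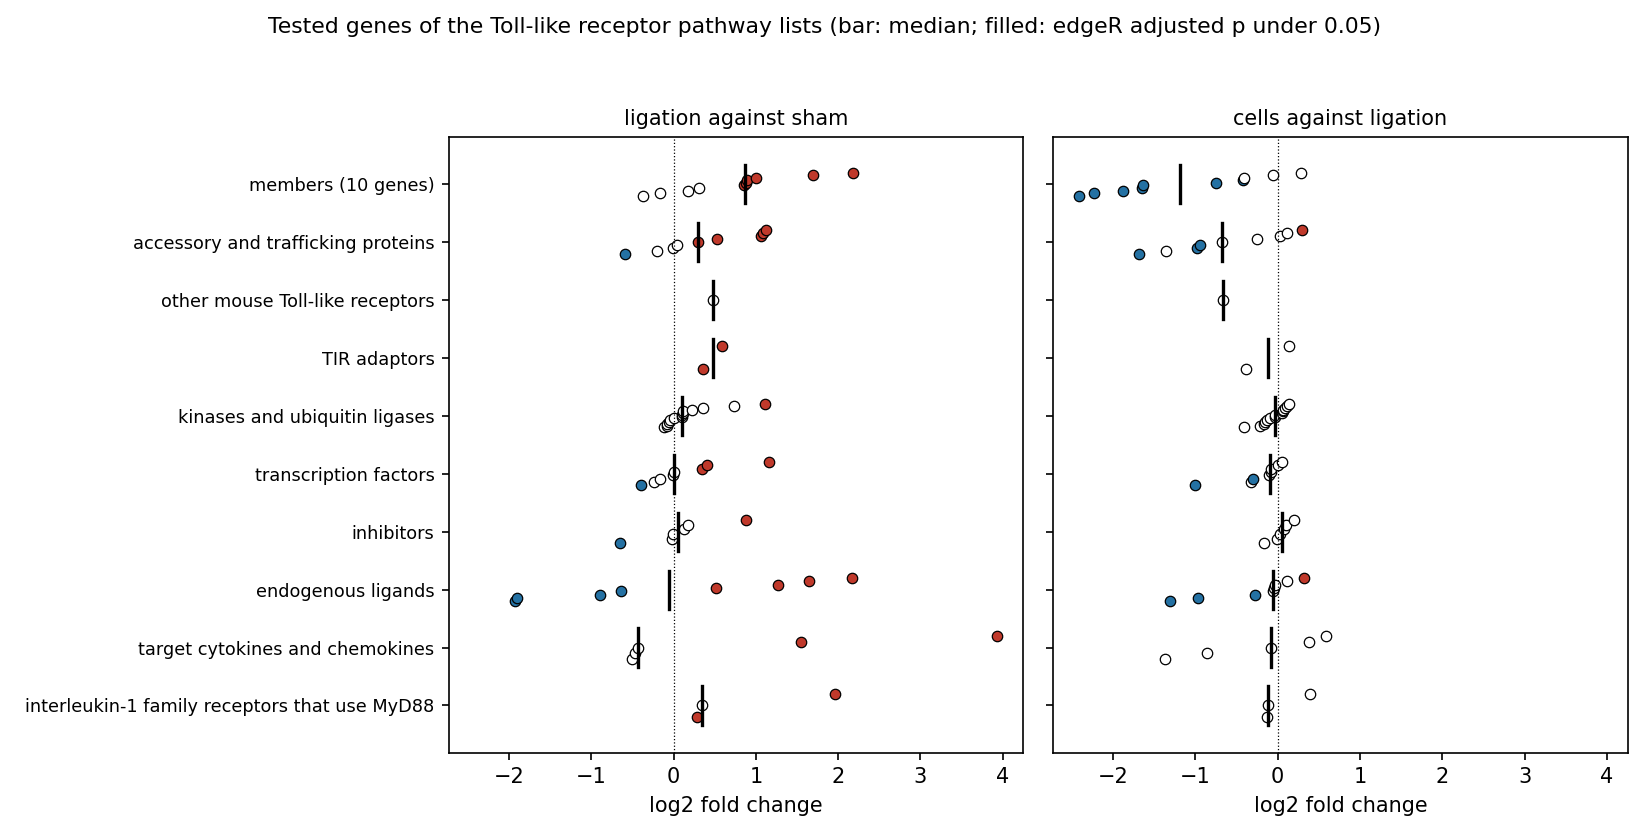
Log2 fold change (horizontal axes) of the 10 genes and of the tested genes in each pathway list, after ligation against sham and with cells against ligation; filled points passed an adjusted p of 0.05, red higher and blue lower, and bars are medians. The list medians with cells against ligation lie between -0.67 and 0.06, and that of the 10 genes is -1.19, or -0.42 without Tlr1, Tlr8 and Tlr9, no cell library of which reached the filter's level.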

How the data were processed

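Each deposited table holds unnormalized read counts for the mouse genes of 1 library. The genome build is mm10, per the submitters' processing notes. RNA came from TRIzol extraction and went into NEBNext Ultra RNA kit libraries, per the labels' protocols. Aligner, counter, annotation release and strand setting are not given in the sources used here. The authors' tables end in htseq-count style lines; reads outside genes or ambiguous, 12.3% to 13.6% per library, were left out. Symbols came from the supplied gene table for 53274 of 53465 identifiers, and positions and exon lengths from GENCODE M21 on the same build.

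Counts were analysed in R 4.3.3 with edgeR 4.0.16 (filterByExpr, TMM factors, 1 fit over 9 libraries with a mean per group and 6 residual degrees of freedom; SE is the log2 fold change divided by the square root of F). DESeq2 1.42.0 and limma 3.58.1 (limma-voom) were alternatives. In simulated data for ligation against sham, 159 of 197 genes changed by 1 on the log2 scale were called with the right sign, among 13656 genes, with 16 unchanged genes called. No other genes were changed there, while 38.2% were called in the measured data, so these shares do not carry over. The exact intervals of summed-count ratios and the 3-count floor cover counting error only. Intervals from the edgeR fit also include the spread between libraries. The 10 genes and the lists were chosen with earlier results of these data known. All 10 were described; pathway genes were named where ranges did not overlap and the adjusted p was under 0.05, at most the 4 largest changes per list and comparison, and others named beside a count were chosen after their values were seen. Groups and replicate numbers follow the sample titles. No 2 replicates agreed within sampling noise (mean chi-square per gene 1.93 to 3.73). The third profile nearest to Myd88 and 1 B cell marker are not reported here. Figures were drawn with matplotlib 3.10.9.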

Additional observations from a re-analysis of the deposited data

How the results depend on the processing

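With all libraries kept, the alternatives gave 6 to 7 members called after ligation, 5 to 7 with cells against ligation and 3 to 4 with cells against sham, and single libraries left out gave 5 to 7, 5 to 7 and 2 to 5. Of 570 member values under alternatives, 530 kept their direction and side of the threshold, 29 lost and 3 gained the call, and 8 changed sign. The 570 include fits without a library of the group not compared, which could change a value little. For Tlr4 after ligation these gave 0.855 to 0.856, beside 0.854. Signs changed to 0.0216 for Tlr3 after ligation and to 0.0522 for Myd88 with cells against sham under library totals alone, and to -0.20 for Tlr8 with cells against sham under limma-voom. In fits without 1 library, cells against sham ran from -0.0681 to 0.26 for Tlr2, -0.64 to 0.43 for Tlr8, -1.02 to 0.16 for Tlr9 and -0.183 to 0.0287 for Myd88. The cause was not tested. With the replicate block, the pairing resting on title numbers alone, 6, 7 and 4 members and 26, 9 and 27 pathway genes were called; same-numbered libraries' deviations correlated at -0.12 to 0.14 over 9414 genes, and 3, 2 and 0 of 6 libraries correlated best with their own number. Summing libraries by header stem, chosen after seeing the data, gave 6, 6 and 4 members. Low counts limit Tlr1, Tlr8 and Tlr9, which had 1 to 9 counts in some libraries.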

Other observations

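Other innate sensors outside the Toll-like family were looked at after the values above were seen, in 3 lists with 22 genes, 19 of them tested. Of 6 tested C-type lectin receptors of myeloid cells, 5 rose after ligation and 5 were lower with cells than in ligation. Over all tested genes, 20.1% were higher after ligation and 5.69% lower with cells than in ligation. The CPM of Clec4n were 3.36, 8.66 and 2.41 in sham, ligation and cells (log2 fold change 1.37 and -1.84, adjusted p 0.000153 and 4.06e-05, edgeR). Mrc1, the mannose receptor, was the one that did not rise, at 61.6, 69.2 and 29.1 CPM, and was lower with cells than in sham as well (-1.08, adjusted p 8.83e-09, edgeR).

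For the next 2 lists, the shares of all tested genes called in either direction were 38.2% after ligation and 9.87% with cells against ligation. Of 8 cytosolic nucleic acid sensors, Aim2 rose and Ifih1 fell after ligation. Zbp1, Aim2 and Tmem173 (STING) were lower with cells than in ligation, by -0.97, -0.77 and -0.57. The ranges of Aim2 overlapped after ligation, and neither of its calls held with DESeq2 (adjusted p 0.0644 and 0.0662) or limma-voom (0.066 and 0.0739), while that of Ifih1 was lost with DESeq2 (0.097). Of 5 tested genes of the NOD-like receptor and inflammasome list, Nod1, Nod2 and Pycard fell and Il18 rose after ligation (Nod2 with an adjusted p of 0.0317 by edgeR and 0.0806 by DESeq2), and 0 passed with cells against ligation by edgeR, DESeq2 or limma-voom, with 2 at an unadjusted p under 0.05. Il18 and Clec4d, one of the lectins that rose, reached the filter's level in no sham library. Whether these lists differ from the Toll-like receptors was not tested.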
